A study of Homo sapiens with 6 samples.

Results

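Box C/D small nucleolar RNAs are represented here by the 115 genes whose symbol starts with SNORD and which had a probe set paired with that 1 symbol, out of 18417 named genes. The selection used the symbol alone and no measured value. Another 49 probe sets name a SNORD gene together with at least 1 other symbol, and these were left out because their signal cannot be assigned. The RNA was taken from HCT116, an established line of human colorectal cancer cells, 48 h after transient transfection with an siRNA duplex. The 3 arrays labelled control received a duplex against GFP, a jellyfish protein, and the 3 arrays labelled siChe-1 received a duplex against Che-1, the product of the AATF gene, which acts in transcription and in the nucleolus. Both groups carry the same background of the parental line and differ in the duplex only, as far as the labels say.

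The gene targeted by the second duplex did not follow the labels. AATF read 7.55, 7.75 and 7.55 on the 3 control arrays and 8.53, 8.81 and 8.87 on the 3 arrays labelled siChe-1 (log2 RMA intensity). It was therefore higher where the label says it was depleted, by 1.12 ± 0.13 on the log2 scale (SE, limma adjusted p = 0.00122). All directions below are those of the labels and would turn if the 2 groups had been exchanged. Separate cultures are not mentioned in the labels, so each p-value rests on the spread between these arrays, which may be technical.

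Box C/D RNAs are short nucleolar RNAs that carry the conserved boxes C and D, bind the methyltransferase fibrillarin with NOP56, NOP58 and SNU13, and base-pair with ribosomal RNA to direct ribose methylation. A few members, such as U14 (the SNORD14 genes), also take part in the cleavage and folding of the ribosomal RNA precursor. Most human members are not transcribed from a promoter of their own. They lie in introns of other genes, many of them ribosomal protein genes or non-coding SNHG genes, and are trimmed out of the spliced intron. Of the 115 genes, 113 lay inside another gene of the RefSeq table (GRCh38.p14), which gives positions but no strand. SNORD13, whose gene has its own promoter, was 1 of the 2 that did not. A probe set cannot tell the mature RNA from the unspliced precursor of the gene around it.

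Many genes that carry these RNAs start transcription in an uninterrupted stretch of C and T, the terminal oligopyrimidine tract that ribosomal protein genes share. The deposited table holds no sequences, and the small nucleolar RNAs themselves are not among the reference sequences used here. The starts of the 7 containing genes on which the later results turn are shown instead, from RefSeq GRCh38.p14. Each window has 10 bases before the listed start and 20 from it, read 5′ to 3′ on the gene's strand, and capitals mark the longest run of C or T that touches the region from 5 bases before to 10 after the start.
EEF1B2: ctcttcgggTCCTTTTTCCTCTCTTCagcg
RABGGTB: cctgCTCTCTCCTTTCCCTgttagacatgg
RPL13A: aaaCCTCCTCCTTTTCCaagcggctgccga
SNHG5: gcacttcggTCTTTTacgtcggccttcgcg
RPL3: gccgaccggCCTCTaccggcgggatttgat
HSPA8: ggaaaccggTCTCattgaactcgcctgcag
GAS5: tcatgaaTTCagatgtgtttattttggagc
EEF1B2 contains SNORD51 and its window lies at chr2:206159885-206159914 on the plus strand. RABGGTB contains the SNORD45 genes (chr1:75786246-75786275, plus strand), and RPL13A contains SNORD32A, SNORD33, SNORD34 and SNORD35A (chr19:49487598-49487627, plus strand). SNHG5 contains SNORD50A and SNORD50B (chr6:85678714-85678743, minus strand), and RPL3 contains SNORD43, SNORD83A and SNORD83B (chr22:39319604-39319633, minus strand). HSPA8 contains SNORD14C and SNORD14E (chr11:123062117-123062146, minus strand), and GAS5 contains 7 measured members (chr1:173869026-173869055, minus strand).

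The run was 17 bases long in EEF1B2, 15 in RABGGTB and 14 in RPL13A, against 6 in SNHG5, 5 in RPL3, 4 in HSPA8 and 3 in GAS5. A run of at least 8 letters, each C or T, searched on the gene's own strand only, was present at the start of 14 of the 32 genes with a listed start that contain members other than those of the imprinted clusters and the SNORD13 pseudogenes. That is 43.8%, and 15.5% of all 27305 genes with a listed start held such a run. Where RefSeq lists several starts, the one with the longest run was used for every gene. With the first listed start the shares were 40.6% and 12.6%, and EEF1B2 was the 1 containing gene that then had no such run. The definition of the run was set after the sequences and the differences had been seen. It counts length near the listed start and does not identify the tract itself. RPL3, a ribosomal protein gene, has a run of 5 and counts as without one. In RPL17 and SNHG29 the runs, of 16 and 13 bases, lie wholly before the listed start and count.

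The array medians over all 33297 probe sets lay between 4.95 and 5.05. All 8 markers of colorectal epithelium were above the dim threshold explained below, while 11 of 16 measured markers of other lineages were below it in both groups. COL1A1, ACTA1, MBP, TYROBP and GFAP, which are markers of other lineages, were above it. None of the 16 was called by limma, and 2 had an unadjusted p under 0.05 (CD14 and COL1A1, both higher). The median difference of the 16 was 0.18, with 14 above 0 and 5 whose arrays labelled siChe-1 all lay above the control arrays. Of the 8 epithelial markers KRT19 was lower (-0.59, limma adjusted p = 0.0171) and ELF3 higher (0.67, adjusted p = 0.0191), and their median difference was -0.075. The part of these markers in the results below was not tested. siChe-1 replicate 1 stood apart from the other arrays, with a limma array weight of 0.220 against 0.933 to 3.38 for the other 5. Leaving it out turned the sign of 11 of the 59 members that were not dim, as defined below, and moved 34 more by over 1.5 times.

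The table has no detection calls, so the level of a probe set was read against 341 olfactory receptor genes, a family that colorectal cells are not known for. A probe set was called dim in a group when its mean lay below the 95th percentile of these genes, which was 4.12 in the control arrays and 4.30 in those labelled siChe-1. Of the 115 members, 59 were not dim, 3 were dim in 1 group (SNORD37, SNORD51 and SNORD102) and 53 were dim in both. The rule decides many of these calls. With the 95th percentile of the 16 markers of other lineages, 30 members were not dim, and with the 40th percentile of all genes 51 were not dim. A level compares 1 probe set between arrays. Levels of different probe sets were not compared as amounts of RNA.

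Small nucleolar RNA probe sets read slightly lower in the arrays labelled siChe-1. The median difference over the 115 members was -0.16 on the log2 scale, and 90 of the 115 differences were below 0 (78.3%). Over all 18417 genes the median difference was 0.0051, and 49.1% were below 0. Less RNA per cell and fewer cells with that RNA cannot be told apart in such bulk samples. Nearly all single differences were small against the spread between arrays. By limma, with Benjamini-Hochberg adjustment over all 18417 genes, 2 members were lower at an adjusted p under 0.05, none was higher and 113 did not pass. Over all genes 685 were called, which is 3.72% in either direction and 2.52% lower, so the members' count is close to that background. At an unadjusted p under 0.05, 17 members were lower (14.8%) and 1 was higher (0.870%), where 9.77% of all genes were lower and 7.88% higher.

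In 18 members every array labelled siChe-1 lay below every control array, and in none did every one lie above. The same held for 13.3% of all genes in the lower direction and for 10.6% in the higher direction. Without siChe-1 replicate 1 the count of members called was 7 (6.09%), of which 6 were lower and 1, SNORD45B, was higher. In that fit 8.50% of all genes were called. Of the 7 members, SNORD13P1 and SNORD116-23 were dim in both groups. The count of members called was 1 without control replicate 1 or control replicate 2. Limma array weights take weight from siChe-1 replicate 1 (0.220) and let siChe-1 replicate 3 (3.38) outweigh siChe-1 replicate 2 (0.957). With these weights 19 members were called, 15 lower and 4 higher. These are 16.5% of the members, close to the 15.6% of all genes called with the weights. Among the 19, SNORD1B, SNORD13P1, SNORD114-26, SNORD116-10, SNORD116-23 and SNORD116-27 were dim in both groups. The split of calls over all genes also moved with the scaling, from 465 lower and 220 higher as deposited to 388 and 276 after a second quantile normalization, and 680 and 170 after centring each array on its median.

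The shift below 0 was not limited to probe sets with a clear signal. The 59 members that were not dim had a median difference of -0.15, with 43 below 0, where all 12441 genes that were not dim had a median of 0.00070. The 53 members dim in both groups had a median of -0.16, with 44 below 0, where all 5565 such genes had a median of 0.013. The olfactory receptor genes, read as a reference for background, had a median of -0.040, with 211 of 341 below 0. H/ACA and Cajal body RNAs (SNORA and SCARNA genes), which guide pseudouridylation or act on spliceosomal RNAs, had a median of -0.10, with 58 of 77 below 0 and 1 called lower. Whether these shifts differ from each other was not tested.

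The shift was also unevenly spread over the arrays. Relative to each member's mean over the 6 arrays, the median member stood at 0.097, 0.13 and -0.039 on the control arrays and at -0.053, -0.086 and -0.082 on the arrays labelled siChe-1. Control replicate 3 thus lay nearer to the arrays labelled siChe-1 than to the other control arrays. Among the 59 members that were not dim, siChe-1 replicate 3 stood at 0.013 and control replicate 3 at -0.045, so the groups overlapped there.

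**Figure D1:**
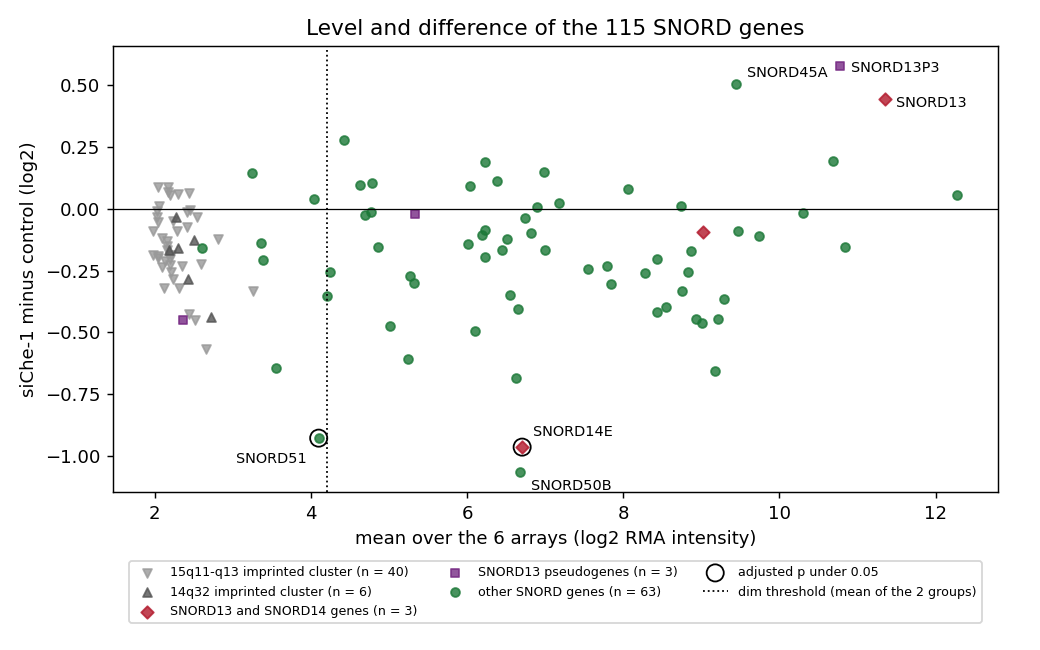
Difference between the groups (siChe-1 minus control, log2) against the mean over the 6 arrays (log2 RMA intensity) for the 115 SNORD genes, coloured by class. The 46 genes of the 2 imprinted clusters lie left of the dotted dim threshold, and the 2 circled genes, SNORD14E and SNORD51, are those at an adjusted p under 0.05.

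Among the RNAs that act in the cleavage of the ribosomal RNA precursor, 1 of the 2 measured U14 genes was lower and the other did not pass. Both lie in HSPA8, which encodes a constitutive heat shock chaperone. SNORD14E (chr11:123058077-123058156) read 7.43, 7.25 and 6.88 on the control arrays and 5.95, 6.35 and 6.37 on the arrays labelled siChe-1. Every array labelled siChe-1 was below every control array, with the lowest value on replicate 1. The difference was -0.96 ± 0.17 (SE), a 1.95-fold fall with a 95% confidence interval of -1.35 to -0.58 on the log2 scale and a limma adjusted p of 0.0135. Without siChe-1 replicate 1 it was -0.83 with adjusted p = 0.0109. SNORD14E was dim in 1 group where markers of other lineages set the threshold, and not dim by the 40th percentile of all genes. The call was lost without control replicate 1 (adjusted p = 0.0793) or control replicate 2 (adjusted p = 0.0831), and where every probe set of the table was tested (adjusted p = 0.0633).

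SNORD14C, the other U14 gene, read 9.54, 8.87 and 8.78 on the control arrays and 9.70, 8.47 and 8.74 on the arrays labelled siChe-1. The groups overlapped, both with their highest value on replicate 1, and the difference was -0.093 ± 0.30 (SE, limma adjusted p = 0.913). Its sign turned under 4 of the alternatives. The gap between SNORD14C and SNORD14E was 2.12, 1.62 and 1.90 on the control arrays and 3.75, 2.12 and 2.37 on those labelled siChe-1. Every gap labelled siChe-1 exceeded every control gap, although the closest pair was nearly equal, and an exact two-sided permutation test gave p = 0.1, the smallest that 3 arrays against 3 allow.

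SNORD13, the U13 RNA that guides acetylation of the small-subunit ribosomal RNA, read 11.73, 11.19 and 10.48 on the control arrays and 12.19, 11.15 and 11.39 on the arrays labelled siChe-1. The groups overlapped and the arrays within a group spanned over 1 log2 unit, with replicate 1 highest in both. The difference was 0.44 ± 0.32 (SE, limma adjusted p = 0.537), and 0.13 without siChe-1 replicate 1. The pseudogene SNORD13P3 moved with it, at 11.25, 10.51 and 9.71 against 11.86, 10.55 and 10.79. Its probe set stood within 0.34 to 0.78 of that of SNORD13 on every array. U13 RNA that binds the pseudogene's probes cannot be told apart from RNA of the pseudogene. SNORD13P2 showed a difference of -0.020, and SNORD13P1 was dim in both groups.

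SNORD51, 1 of the guides of large-subunit ribosomal RNA methylation, lies in the elongation factor gene EEF1B2 (chr2:206161881-206161950). It read 4.55, 4.78 and 4.36 on the control arrays and 3.45, 3.69 and 3.77 on the arrays labelled siChe-1. The groups did not overlap, at a mean of 4.56 ± 0.21 against 3.64 ± 0.17 (SD, n = 3 arrays each). The difference was -0.93 ± 0.15 (SE, limma adjusted p = 0.00668), a measured 1.90-fold, with a 95% confidence interval of -1.25 to -0.60 on the log2 scale. The mean of the arrays labelled siChe-1 was below the dim threshold of 4.30, so the level there is not shown to be above background and the size of the fall is uncertain. Under both other dim rules SNORD51 was dim in both groups. The call held in each of the 13 alternative fits that kept the gene. The filter that removes the dimmest 40% of genes dropped it.

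SNORD50B showed the largest difference of all members without passing the test. It lies beside SNORD50A in SNHG5, and both guide methylation of large-subunit ribosomal RNA. SNORD50B read 7.19, 7.27 and 7.17 on the control arrays and 5.30, 6.64 and 6.49 on the arrays labelled siChe-1. All control arrays were above all arrays labelled siChe-1, and replicate 1 of the latter was more than 1 log2 unit below its partners. The difference was -1.06 ± 0.29 (SE, limma adjusted p = 0.0774). Without siChe-1 replicate 1 it was smaller, at -0.64, and passed (adjusted p = 0.00715). SNORD50A differed by -0.46 ± 0.24 (limma adjusted p = 0.371).

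Several guides in other genes had groups that did not overlap and did not pass either. SNORD105, a guide of small-subunit ribosomal RNA in the ribosome biogenesis gene PPAN, differed by -0.61 (limma adjusted p = 0.0622). It passed in 4 alternatives, among them centring on array medians (adjusted p = 0.0417) and leaving out the dimmest 40% of genes (adjusted p = 0.0489). SNORD4A in RPL23A differed by -0.49 (adjusted p = 0.0831). SNORD12C, in the non-coding gene ZFAS1, and SNORD30, in SNHG1, differed by -0.68 and -0.66 (limma adjusted p = 0.275 and 0.303). Both rested on siChe-1 replicate 1: SNORD12C read 5.42 there and 6.75 and 6.68 on the other 2 arrays, and SNORD30 read 7.95 there and 9.37 and 9.22. Without that array the differences were -0.25 and -0.21.

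No member passed in the higher direction. SNORD45A, a guide of small-subunit ribosomal RNA in RABGGTB, had the smallest p of those above 0. It read 9.47, 8.83 and 9.28 on the control arrays and 9.72, 9.43 and 9.94 on the arrays labelled siChe-1. The groups overlapped by 1 pair of arrays, control replicate 1 being above siChe-1 replicate 2. The difference was 0.50 ± 0.19 (SE, limma adjusted p = 0.188). SNORD63, in the mitochondrial chaperone gene HSPA9, differed by 0.28 (adjusted p = 0.527) and SNORD28, in SNHG1, by 0.19 (adjusted p = 0.794). The difference of SNORD28 was -0.11 without siChe-1 replicate 1.

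**Figure D2:**
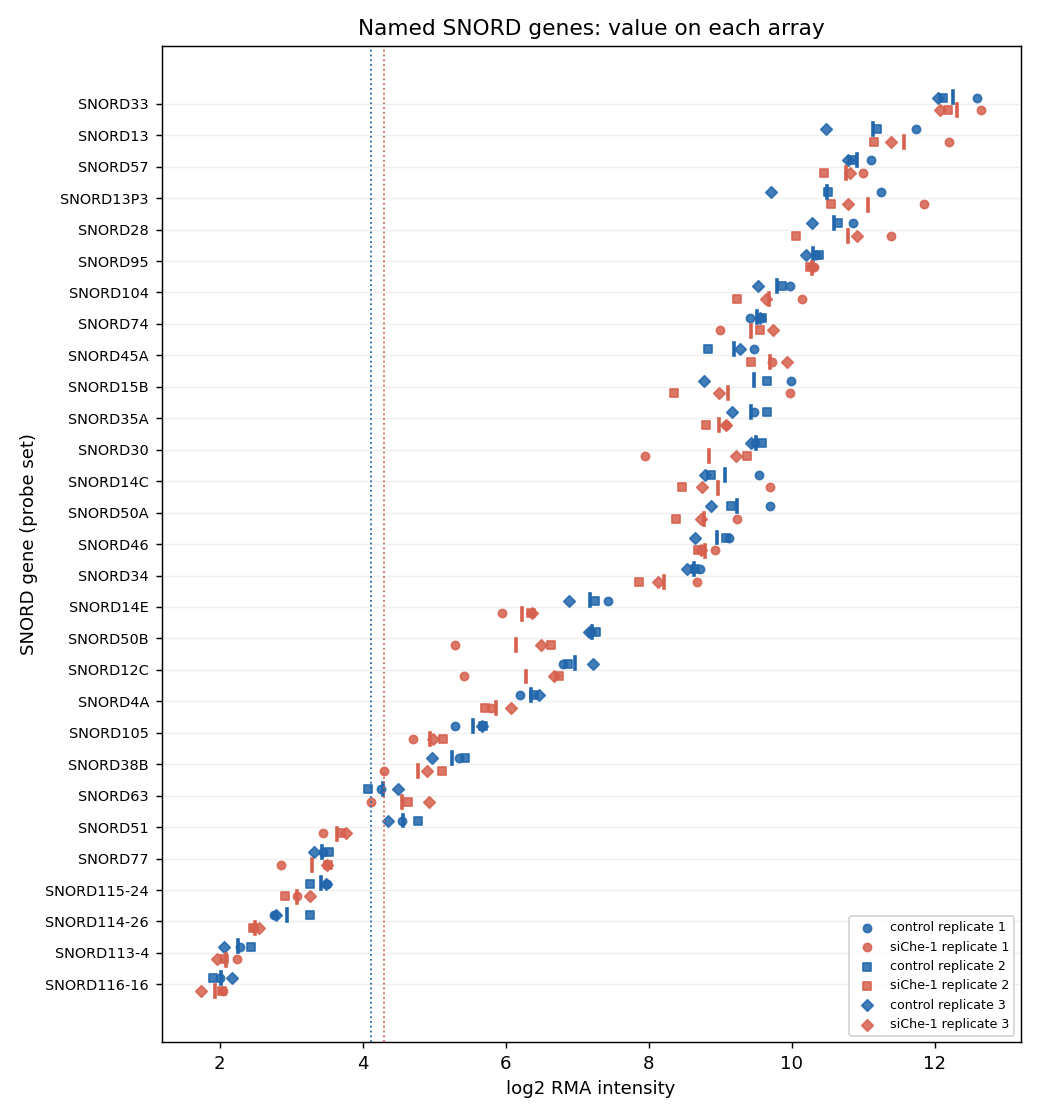
Value of each named SNORD gene (log2 RMA intensity) on the 3 control arrays (blue) and the 3 arrays labelled siChe-1 (red), with replicates as circles, squares and diamonds and group means as vertical bars. Dotted lines mark the dim thresholds of 4.12 and 4.30. SNORD14E, SNORD50B and SNORD51 are separated between the groups, and for SNORD12C, SNORD30 and SNORD50B the circle of siChe-1 replicate 1 lies far left of its partners.

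The values of members in the same containing gene are given next, and differences between members of a gene were not tested. RPL13A, a ribosomal protein gene, contains 4 measured members, the RNAs known from responses to lipid and oxidative stress, and all 4 were above the dim threshold. SNORD32A, SNORD34 and SNORD35A differed by -0.44, -0.42 and -0.44, and SNORD33 by 0.054 ± 0.19 (SE). Without siChe-1 replicate 1 all 4 were below 0, from -0.76 for SNORD32A to -0.12 for SNORD33. SNORD35A read 9.47, 9.66 and 9.17 on the control arrays and 9.08, 8.80 and 9.08 on the arrays labelled siChe-1, without overlap (limma adjusted p = 0.152). SNORD33 read 12.60, 12.12 and 12.05 against 12.66, 12.19 and 12.07, which overlap almost entirely. SNORD34 passed only without siChe-1 replicate 1 (adjusted p = 0.0121) and with array weights (adjusted p = 0.00761).

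The 3 members in RPL3 were all below 0, from -0.40 for SNORD43 to -0.14 for SNORD83A. Without siChe-1 replicate 1, SNORD43 differed by -0.11, SNORD83A by -0.0024 and SNORD83B by -0.41. The 2 in RPS3, SNORD15A and SNORD15B, differed by -0.35 and -0.36, and by -0.26 and -0.80 without that array. The 3 members in RABGGTB, SNORD45A, SNORD45B and SNORD45C, were all above 0, at 0.50, 0.11 and 0.19, and none passed. SNORD45B read 5.36 on siChe-1 replicate 1 and 6.92 and 7.04 on its partners. Without that array the 3 differed by 0.49, 0.65 and 0.36 and SNORD45B was called higher, and with array weights all 3 were called higher.

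GAS5, a non-coding gene whose exons are spliced and decay while its introns give rise to guides, contains 7 measured members, of which 6 were not dim. Their differences ran from -0.33 for SNORD44 to 0.15 for SNORD79, with 5 of the 7 below 0. Without siChe-1 replicate 1, SNORD44 differed by -0.061 and the 6 that were not dim ranged from -0.076 to 0.19. SNORD74, the highest of them in level, read 9.41, 9.59 and 9.56 on the control arrays and 8.99, 9.56 and 9.74 on the arrays labelled siChe-1. Replicate 1 of the latter was the lowest of the 6 and replicate 3 the highest. The difference was -0.090, and 0.13 without siChe-1 replicate 1. SNORD77, dim in both groups, likewise turned from -0.14 to 0.079.

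None of the 10 members with the highest level passed. They are SNORD13, SNORD13P3, SNORD28, SNORD33, SNORD45A and SNORD74, described above, and 4 others. SNORD57, in the gene of the core protein NOP56, differed by -0.15. SNORD95, in the scaffold gene RACK1, differed by -0.017. SNORD104, in SNHG25, differed by -0.11, and SNORD15B by -0.36 with an SE of 0.39. The limma adjusted p of these 4 lay between 0.692 and 0.957, and the sign of the last 3 turned under at least 1 alternative.

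Members in genes whose start held a run of at least 8 C or T differed less from 0 than the others did. The 17 such members that were not dim had a median difference of -0.088, with 12 below 0. The 26 in genes whose start held no such run had a median of -0.23, with 22 below 0. The difference between the 2 medians was not tested, and the split does not separate genes with a terminal oligopyrimidine tract from genes without one. With the first listed start both medians had to stay the same, so this is no check of them. Only EEF1B2 then changed side, and its 1 measured member, SNORD51, is in neither set. EEF1B2 and RABGGTB, at whose starts the runs of 17 and 15 bases stand, contain SNORD51 and SNORD45A, whose differences of -0.93 and 0.50 lay near opposite ends of the range. SNORD51, dim in 1 group, is not among the 17.

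The containing gene itself had a probe set of its own for 35 members, and for 29 of these the member was not dim. Across these 29 pairs, in 20 genes, the differences of member and containing gene had a Pearson r of 0.23 and a Spearman rho of 0.18. Several members share a gene, and all pairs share the same 6 arrays. The sign was the same in 14 of the 29. The member lay below the containing gene in 19 pairs and above it in 10. The median difference was -0.12 for the members and 0.035 for the genes around them, none of which was called by limma.

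HSPA8 differed by -0.36 ± 0.11 (SE, limma adjusted p = 0.124), against -0.96 for SNORD14E. SNORD14E minus HSPA8 was lower on every array labelled siChe-1 than on any control array (difference of the differences -0.61). EEF1B2 differed by -0.090 ± 0.18 (adjusted p = 0.854), against -0.93 for SNORD51, and this gap again did not overlap between the groups (-0.84). ZFAS1 differed by 0.036, against -0.68 for SNORD12C, whose gap overlapped. RABGGTB differed by 0.32 (adjusted p = 0.338), in the same direction as its 3 members.

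Among the 29 pairs the gap did not overlap in 4 (13.8%), and in all 4 the member was the lower. For single genes, groups did not overlap in 13.3% in the lower and 10.6% in the higher direction. These were SNORD14E in HSPA8, SNORD15A in RPS3 (-0.61, with the closest arrays of the 2 groups nearly equal), SNORD36B in RPL7A (-0.48) and SNORD43 in RPL3 (-0.68). Each gave p = 0.1 in the exact two-sided permutation test, the smallest it can give. RPL3 itself differed by 0.29 and RPL7A by 0.40 (limma adjusted p = 0.230 and 0.245).

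**Figure D3:**
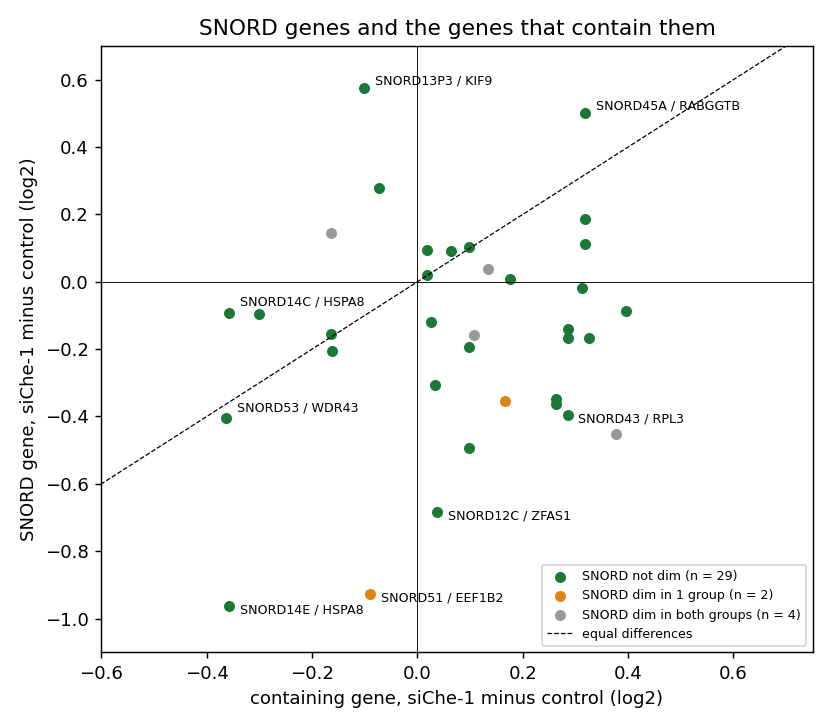
Difference of a SNORD gene (vertical axis) against that of the gene that contains it (horizontal axis), both siChe-1 minus control in log2, for the 35 pairs in which both were measured. The dashed line marks equal differences. SNORD14E and SNORD51 lie far below it, and 19 of the 29 members that were not dim lie below it. Members that were not called, among them SNORD12C, SNORD43 and the dim SNORD13P1, lie farther below it than SNORD14E.

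The brain-enriched members of the 2 imprinted clusters gave no signal that could be told from background. The 40 measured members of the 15q11-q13 cluster, 20 copies each of SNORD115 and SNORD116 in SNHG14, lie in the region whose paternal copy is lost in Prader-Willi syndrome. The 6 of the 14q32 cluster, 2 of SNORD113 and 4 of SNORD114, lie in MEG8. All 46 were dim in both groups, with means over the 6 arrays from 1.98 to 3.25, and the median olfactory receptor gene read 2.79 in the control arrays. The copies of a family are related in sequence, so a probe set may read more than 1 copy. How alike they are was not examined here.

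The median difference was -0.14 for the 15q11-q13 members and -0.16 for those of 14q32, with 39 of the 46 below 0. None passed in the main test. SNORD116-23 was called without siChe-1 replicate 1, and SNORD114-26, SNORD116-10, SNORD116-23 and SNORD116-27 were called with array weights. The highest in level, SNORD115-24, read 3.50, 3.26 and 3.49 on the control arrays and 3.08, 2.92 and 3.26 on the arrays labelled siChe-1. The lowest, SNORD116-16, read 2.0, 1.90 and 2.17 against 2.04, 2.03 and 1.74. In the 14q32 cluster SNORD114-26 read 2.75, 3.26 and 2.79 against 2.48, 2.47 and 2.55 (difference -0.44, limma adjusted p = 0.151), and SNORD113-4 differed by -0.17. At these levels a difference is not shown to be one of RNA. Outside the clusters 7 members were dim in both groups (SNORD1B, SNORD7, SNORD13P1, SNORD20, SNORD56B, SNORD77 and SNORD96B), of which SNORD1B showed the largest difference (-0.64, limma adjusted p = 0.0717).

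The members that were not dim varied more within a group than all genes that were not dim. Their median SD was 0.21 in the control arrays and 0.38 in those labelled siChe-1, against 0.12 and 0.19 for all genes. The 57 H/ACA and Cajal body RNA genes that were not dim also lay above all genes, at 0.19 and 0.26. Every array deviated from the mean of its 2 partners by more than 0.5 log2 units in a larger share of the 59 members that were not dim than of all genes. Over the control arrays the shares were 16.9%, 3.39% and 15.3%, against 1.64%, 1.44% and 1.99% of all genes. On siChe-1 replicates 2 and 3 they were 37.3% and 20.3%, against 6.61% and 2.72%. The share was highest on siChe-1 replicate 1, which deviated in this way in 33 of the 59 members that were not dim, downward in 17 and upward in 16. That is 55.9% of them, against 22.1% of all 12441 genes that were not dim. The deviations ran from -1.62 for SNORD45B to 1.31 for SNORD15B. It was the lowest of its group in 28 of the 59 members and the highest in 25, and so between its partners in 10.2%, against 13.6% of all genes that were not dim. Control replicate 3 was the lowest of its group in 35 of the 59.

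Control replicate 1 deviated in a similar way from its own partners. Over the 59 members the deviations of the 2 arrays had a Pearson r of 0.66, given as a description because the members share the same arrays, and over all genes that were not dim r was 0.27. Both arrays were above their partners in 22 members and both below in 18. The deviation of siChe-1 replicate 1 had an r of 0.39 with the level of the member and of 0.18 with its length. This comparison, and the limit of 0.5, were chosen after the values had been seen.

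Members from 1 containing gene deviated in the same or in opposite directions on siChe-1 replicate 1. Of the 12 genes with at least 2 members that were not dim, directions were mixed in 9. All 6 such members in GAS5 were below their partners (-0.91 to -0.12), as were the 2 in ATP5F1B, and all 4 in RPL13A were above (0.14 to 0.94). In SNHG1, SNORD28 stood 0.91 above its partners there and SNORD30 stood at -1.35 relative to them. The gap between them was 1.37, 1.06 and 0.86 on the control arrays and 3.45, 0.69 and 1.69 on those labelled siChe-1, so it was widest on replicate 1 in both groups. In SNHG5 the gap between SNORD50A and SNORD50B was 2.51, 1.89 and 1.70 against 3.93, 1.74 and 2.24, again widest on both arrays numbered 1. Exact two-sided permutation tests of these gaps between the groups gave p = 0.5 and p = 0.6. The labels give no batch, culture or RNA quality by which the arrays numbered 1 could be compared, and the part of such factors was not tested.

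**Figure D4:**
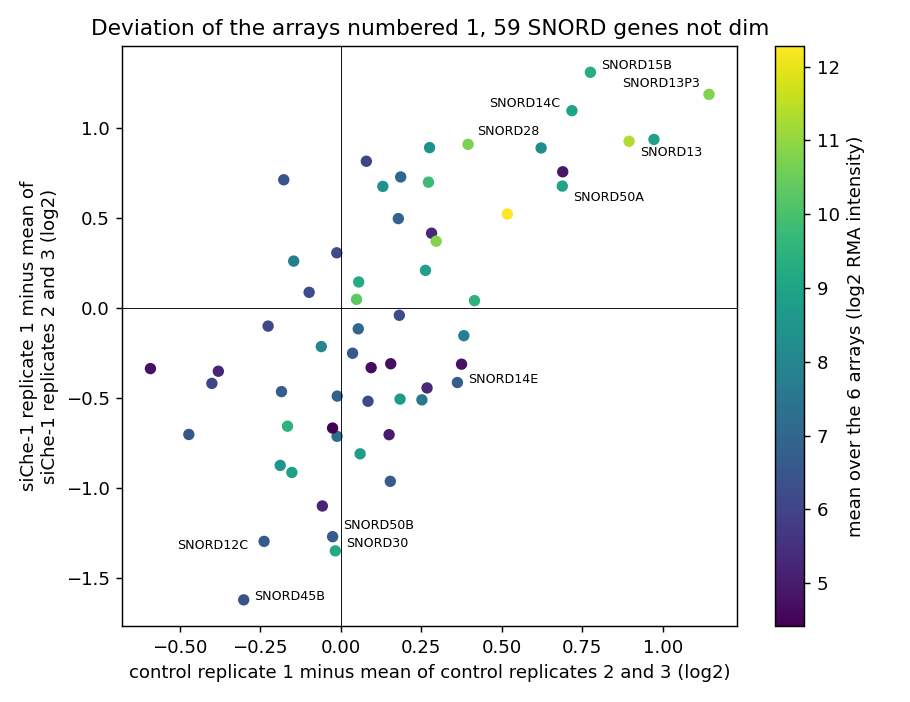
Deviation of siChe-1 replicate 1 from the mean of its 2 partners (vertical axis) against that of control replicate 1 from its own (horizontal axis), both in log2, for the 59 SNORD genes that were not dim, coloured by level. Points spread from -1.62 to 1.31 on the vertical axis, with SNORD13 and SNORD15B high on both axes and SNORD30, SNORD45B and SNORD50B low on the vertical axis.

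The proteins that build and process these particles showed a few lower values and no higher call. Of the 4 core proteins 2 were measured singly. NOP58 read 10.23, 10.33 and 10.14 on the control arrays and 9.44, 9.89 and 9.91 on the arrays labelled siChe-1, without overlap (difference -0.49, limma adjusted p = 0.108). FBL, the methyltransferase fibrillarin, differed by -0.048 (adjusted p = 0.887).

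Among 13 of 14 assembly factors that were measured, 1 was lower and 12 did not pass. NUFIP1, an adaptor that brings SNU13 to the chaperone complex, fell from 8.40 ± 0.15 to 7.77 ± 0.087 (SD, n = 3 arrays each), by 0.62 on the log2 scale (limma adjusted p = 0.0246). The next smallest p was that of NOPCHAP1, a chaperone of NOP58 (-0.40, adjusted p = 0.188). Together the core proteins and assembly factors had 1 call among 15 genes. That call was lost without control replicate 1, control replicate 2 or siChe-1 replicate 3. Without siChe-1 replicate 1, 3 genes were called over a wider list, which adds the factors of maturation, transport and turnover described next.

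Of 23 measured factors of maturation, transport and turnover none passed by limma, and 8 were lower and 1 was higher at an unadjusted p under 0.05. By the same limit 9.77% of all genes were lower and 7.88% higher. All 23 were not dim, and of the 12441 genes that were not dim 1592 were lower and 1219 higher. The differences of the 23 factors had a median of -0.16, with 19 below 0. This shift lay mostly on siChe-1 replicate 1, where the median deviation was -0.33, against -0.0058 and 0.10 on its partners. Without that array the median was -0.047, with 13 of 23 below 0. TGS1, which hypermethylates the cap of U3 and related RNAs, differed by -0.64 (adjusted p = 0.0633), and TCOF1, the nucleolar factor treacle, by -0.36 (adjusted p = 0.112). Of the 8 proteins of the U3 particle, which acts in the first cleavages of the ribosomal RNA precursor, RRP9 was lower (-0.62, limma adjusted p = 0.0291) and 7 did not pass. The smallest p of the 7 was that of NOP14 (-0.57, adjusted p = 0.0572).

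Genes known to contain small nucleolar RNAs of any class were mostly above 0. Of 39 measured protein-coding ones 1 was lower, RNF149 (-0.60, limma adjusted p = 0.0341), and 38 did not pass, with a median difference of 0.12. Of 6 measured non-coding ones none passed by limma, 1 had an unadjusted p under 0.05, and SNHG17 had the smallest p (-0.60, adjusted p = 0.0933). The list of protein-coding genes includes NOP58, which is also a core protein.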

How the data were processed

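The data are 6 Affymetrix whole-transcript arrays, made from 6 micrograms of total RNA each, per the labels' protocols. The deposited values are log2 intensities. The submitters' processing notes name RMA and Affymetrix Expression Console, without a version, as what the authors used. RMA makes the distributions of the arrays alike and compresses the differences of dim genes. Of 33297 probe sets, 19460 had 1 symbol, 1754 had several and 12083 were not listed. 19429 gene identifiers were found in RefSeq (GRCh38.p14), which changed 0 symbols, and 0 columns belonged to other samples. The brightest probe set of a gene was used, which left 18417 genes. All 115 members were found in RefSeq, and a gene that spans a member is called its containing gene.

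The main test was limma 3.58.1 (R 4.3.3), with lmFit and eBayes on the group alone and every gene kept, and Benjamini-Hochberg over all genes at 0.05. It had been tested on simulated data in which every value was drawn independently. That test does not cover deviations that many genes share on 1 array. Gaps between a member and another gene were tested by exact permutation of the 6 arrays. The members, lists and rules were chosen with earlier results of these data known. Members were named when called, when among the 12 largest differences not dim in both groups, the 10 highest levels or the 3 smallest p in each direction, when an RNA of precursor cleavage, or when highest or lowest in a containing gene or cluster of at least 4. Further members, of containing genes described, were picked with their values known. The number of arrays limits the precision. Replicate numbers were not treated as pairs. The named results by containing gene leave out 1 gene, which is counted in totals and not reported here.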

Additional observations from a re-analysis of the deposited data

How the results depend on the processing

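The count of 2 members became 4 with centring on array medians, 1 with every probe set tested, 19 with array weights, 1 at an adjusted p under 0.01, 0 with a difference of at least 1 also required, and 1 to 7 when 1 array was left out. The replicate block gave 8 members, 1145 genes, and 2 genes over the core, assembly and maturation lists together. The labels give the arrays only a shared number and do not say whether same-numbered arrays share a culture or batch. Over all genes, same-numbered arrays correlated at 0.23, 0.064 and -0.045 in their deviations from the group means. The first was the highest of any pair across the groups, and control replicates 2 and 3 correlated better with another number than with their own. Over the 59 members that were not dim, the arrays numbered 1 correlated at 0.66. The count over all genes, 685, became 408 with every probe set tested, 2865 with array weights, 261 at an adjusted p under 0.01, 187 with a difference of at least 1, and 272 to 1565 when 1 array was left out. Over the core, assembly and maturation lists together, the 1 called gene became 2 with centring, 2 without the dimmest 40% and 0 with every probe set tested. That count was 5 with array weights, 0 at the stricter p, 0 with a difference of at least 1, and 0 to 3 when 1 array was left out. The median member difference of -0.16 was -0.22 with centring, which put the median of all genes at -0.059, and -0.21 to -0.096 when 1 array was left out. How far that median had to move to count as moved, 0.063, is the SD over arrays of the median deviation, a measure chosen after first results. The first choice, the SD of the array medians themselves, was wider. Of 399 comparisons of 29 named members, 359 kept their direction and side of the threshold, 18 gained a call, 3 lost one (all SNORD14E) and 19 turned. Those that turned were all uncalled in both settings. When 1 array was left out, SNORD14C lay between -0.46 and 0.16, SNORD33 between -0.12 and 0.23, SNORD28 between -0.11 and 0.56, SNORD15B between -0.80 and 0.0099, SNORD104 between -0.34 and 0.11, SNORD116-16 between -0.15 and 0.011, SNORD74 between -0.25 and 0.13, SNORD77 between -0.25 and 0.079, and SNORD95 between -0.073 and 0.022. The others that turned were SNORD14C (0.0021) and SNORD95 (0.035) with quantile normalization, SNORD33 with centring (-0.0100), and SNORD33 (-0.17), SNORD74 (0.16) and SNORD77 (0.039) with array weights. The causes were not tested. Signal over background limits the 53 members dim in both groups. The background correction was not varied. The values without siChe-1 replicate 1 for members by containing gene, and for the maturation list, were chosen after seeing the data.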
